A study of Mus musculus with 6 samples.

Results

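The genes described here are 10 antiproliferative and stress-response genes of 4 small families: Gadd45a, Gadd45b and Gadd45g, Btg1, Btg2 and Btg3, Tob1 and Tob2, and Ier2 and Ier5. They were taken by symbol from the deposited table of 24421 gene rows, and all 10 were present and passed the filter on low counts. The samples are LK cells, bone marrow cells without lineage markers but with the receptor c-Kit, a gate that holds haematopoietic stem cells and myeloid and erythroid progenitors. ASXL1-MT-KI mice, in which mutant ASXL1 is knocked in, were compared with their wild type littermates; ASXL1 is a chromatin protein whose gene is often mutated in myeloid neoplasms. Each group had 3 libraries, all from C57BL/6 mice aged 8 to 12 weeks. The series is described as biologically independent experiments. The form of the mutation, the promoter that drives it, its zygosity and the number of animals per library were not given in the sources used here, so p-values measure the spread between these libraries, part of which may be technical.

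GADD45 proteins are small, mostly nuclear stress sensors without enzymatic activity. They bind the p38 and JNK pathway kinase MTK1 (Map3k4), the cyclin-dependent kinase CDK1 and PCNA, and they are induced by DNA damage, cytokines and differentiation signals. BTG and TOB proteins share an N-terminal domain through which they bind the CNOT7 and CNOT8 deadenylases, so that they link poly(A) tail shortening of messenger RNA to exit from the cell cycle. IER2 and IER5 are immediate early gene products, made within minutes of stimulation, and IER5 is known to act on heat shock factor 1. In blood cells, Btg1 and Btg2 are known for roles in lymphocyte quiescence, and Gadd45 genes for roles in stress and myeloid differentiation.

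In ASXL1-MT-KI cells, Gadd45b, Btg1, Tob2, Ier2 and Ier5 fell, to levels between 0.493 of wild type for Gadd45b and 0.870 of wild type for Tob2. The other 5 genes did not pass the test. Among those, Gadd45a, Gadd45g, Btg2 and Tob1 had lower means in ASXL1-MT-KI cells, and Btg3 had a higher one. A gene passed when its adjusted p was under 0.05 in edgeR's quasi-likelihood test with Benjamini-Hochberg adjustment over 13548 genes. The median log2 fold change of the 10 genes was -0.41, against 0.00 over all genes tested, and 9 of 10 were negative against 49.8% of all genes. Among all genes, 16.0% passed in either direction, 7.69% as lower and 8.29% as higher in ASXL1-MT-KI cells, beside which stand the 5 falls among 10 genes here. None of the 10 rose in the edgeR fit of all 6 libraries, also at an unadjusted p under 0.05, and none rose in DESeq2 or limma-voom. Btg3 rose in edgeR only when wild type replicate 1 was left out. Cells of a type that became rarer and cells with less of an RNA each cannot be told apart in these bulk libraries.

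**Figure D1:**
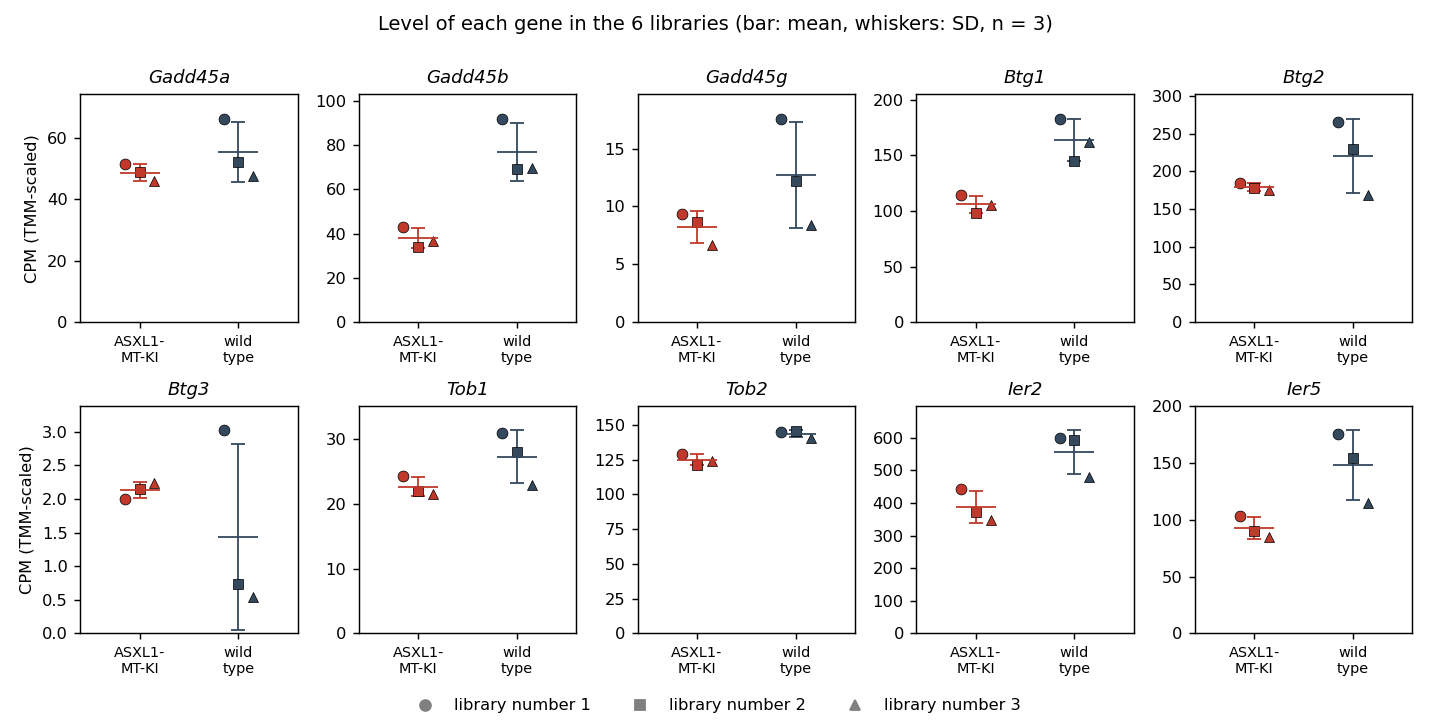
Level of each gene in CPM (counts scaled to a common library size with TMM) in the 3 ASXL1-MT-KI libraries (red, left) and the 3 wild type libraries (dark, right); horizontal bars are means, whiskers SD, and marker shapes the library numbers. The groups do not overlap for Gadd45b, Btg1, Tob2, Ier2 and Ier5, and Btg3 has 1 high and 2 low wild type libraries.

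Libraries held between 40462168 and 47579480 counts. The targeted gene, Asxl1, had 323.5, 326.6 and 310.2 CPM in ASXL1-MT-KI libraries and 176.0, 170.0 and 165.1 CPM in wild type libraries; gene counts do not tell the knock-in allele from the endogenous one. The LK markers Kit and Mpo were strongly expressed in both groups, at 382.9 ± 11.7 and 14010 ± 382 CPM in ASXL1-MT-KI cells against 406.4 ± 41.0 and 13942 ± 791 CPM in wild type cells (SD, n = 3 each). Of the T cell genes, Cd3g had no count in any library, but Cd3d had 1 to 9 and Cd4 45 to 95 counts per library. Number 3 of both genotypes had been seen to stand apart from numbers 1 and 2 in earlier results of these data. Results are therefore given also with numbers 1 and 2 only where that changes a call. Same-numbered libraries deviated together, so the fit with the replicate number as a block is given where it changes a call.

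The promoters of 4 of the genes are shown because 3 of them belong to genes that fell and the fourth, that of Btg2, is the 1 promoter among these genes with a cyclic AMP response element. Each is the 250 bases before the RefSeq start in GRCm38.p6, read 5′ to 3′ on the strand of the gene, with capitals for matches to the motifs searched.

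Gadd45b, chr10:80929841-80930090, plus strand: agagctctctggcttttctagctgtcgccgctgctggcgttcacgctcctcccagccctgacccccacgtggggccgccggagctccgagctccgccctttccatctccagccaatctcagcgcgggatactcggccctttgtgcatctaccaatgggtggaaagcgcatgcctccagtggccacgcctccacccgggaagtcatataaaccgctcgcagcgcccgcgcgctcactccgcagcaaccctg
Btg1, chr10:96616751-96617000, plus strand: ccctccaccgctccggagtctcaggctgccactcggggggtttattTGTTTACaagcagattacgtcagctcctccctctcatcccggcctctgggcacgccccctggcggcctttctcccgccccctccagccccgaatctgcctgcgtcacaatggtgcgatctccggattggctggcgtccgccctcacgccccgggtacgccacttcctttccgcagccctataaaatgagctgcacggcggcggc
Btg2, chr1:134079156-134079405, minus strand: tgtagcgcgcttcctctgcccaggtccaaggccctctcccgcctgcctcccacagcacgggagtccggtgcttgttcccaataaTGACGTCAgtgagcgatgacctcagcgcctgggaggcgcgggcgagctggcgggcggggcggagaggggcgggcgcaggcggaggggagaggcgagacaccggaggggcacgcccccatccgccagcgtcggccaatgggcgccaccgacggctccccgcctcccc
Ier5, chr1:155099637-155099886, minus strand: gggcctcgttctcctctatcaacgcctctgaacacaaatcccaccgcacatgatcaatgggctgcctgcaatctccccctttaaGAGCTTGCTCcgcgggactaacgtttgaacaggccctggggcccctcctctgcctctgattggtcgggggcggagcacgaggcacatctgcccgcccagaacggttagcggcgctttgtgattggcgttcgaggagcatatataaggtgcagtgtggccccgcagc

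The capitals mark the cyclic AMP response element TGACGTCA in Btg2, 166 to 159 bases before the start, the reverse complement of the FOXO motif GTAAACA in Btg1, 204 to 198 bases before it, and the p53 decamer, the unit that p53 response elements hold in pairs, in Ier5, 166 to 157 bases before it. The Gadd45b window, whose last 18 bases lie in an exon of the GENCODE annotation, held none of the 7 motifs searched on both strands, which were also the AP-1 motif TGANTCA, the EGR motif GCGTGGGCG, the CArG box and the NF-kB site. Over all 32851 promoters of the RefSeq table, 1.55% held the cyclic AMP response element, 3.17% the FOXO motif and 7.13% a p53 decamer. AP-1, EGR and CArG box letters were in no window of these genes and in 6.75%, 0.536% and 1.47% of all promoters. The NF-kB site, in 7.25% of all, was found in 1 of 2 Btg3 promoters, and Gadd45a also held a p53 decamer. That Btg3 window lies wholly within the GENCODE bounds of the gene. So does the Gadd45a match, 40 to 31 bases before the RefSeq start. Of the 10 genes, 9 had a promoter in the table; Ier2 had none. No motif was found in more than 1 of the genes that fell and had a promoter, and a match is a description of letters, not of binding.

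Gadd45b, an NF-kB and TGF-beta responsive member of its family, had the largest change of the 10. It lies on chromosome 10 (80930073 to 80932204, plus strand, GRCm38). In CPM, counts scaled to a common library size, it stood at 42.9, 34.0 and 36.9 in ASXL1-MT-KI libraries and at 92.0, 69.3 and 69.6 CPM in wild type libraries. The highest ASXL1-MT-KI value lay well below the lowest wild type value. On the log2 scale the fold change was -1.02 ± 0.13 (SE; adjusted p = 0.00252, edgeR). Within same-numbered libraries the log2 ratios were -1.10, -1.03 and -0.92, so the difference was of like size in each. Leaving out any 1 library kept the call, but with numbers 1 and 2 only the log2 fold change was -1.07 and the adjusted p 0.0642.

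Gadd45a, the family member most closely tied to p53 and DNA damage, lies on chromosome 6 (67035096 to 67037457, minus strand). It had 51.4, 48.9 and 45.8 CPM in ASXL1-MT-KI libraries and 66.3, 52.1 and 47.5 CPM in wild type libraries. The groups overlapped, and only number 1 of wild type stood clearly higher. Its log2 fold change of -0.18 had a 95% interval of -0.45 to 0.08 (adjusted p = 0.334, edgeR), a range that covers the values of Tob1 and Btg2. With the block it was -0.17, with an interval of -0.31 to -0.04, and lay at the threshold without passing (adjusted p = 0.05, edgeR). A non-coding gene on the opposite strand, E230016M11Rik, shares 337 exon bases with it but was at only 1.23 ± 0.225 CPM in ASXL1-MT-KI cells and 1.25 ± 0.159 CPM in wild type cells.

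Gadd45g, the member induced by cytokines and differentiation, lies on chromosome 13 (51846678 to 51848468, plus strand) and was the least abundant of the family. Its ASXL1-MT-KI values were 9.31, 8.69 and 6.63 CPM and its wild type values 17.6, 12.2 and 8.43 CPM. In each genotype number 3 was the lowest, and wild type number 3 lay below ASXL1-MT-KI numbers 1 and 2. A log2 fold change of -0.63 ± 0.27 (SE) did not pass (adjusted p = 0.179, edgeR). It passed with the replicate block (-0.60, adjusted p = 0.000935), in DESeq2 (adjusted p = 0.0253), with numbers 1 and 2 only (adjusted p = 0.0288) and without wild type replicate 3 (adjusted p = 0.0236). The summed level of the 3 Gadd45 genes was 94.8 ± 7.70 CPM in ASXL1-MT-KI cells and 145.0 ± 27.1 CPM in wild type cells (SD, n = 3 each).

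Btg1, a cofactor of the CCR4-NOT deadenylase and of the arginine methyltransferase PRMT1, had the lowest p of the 10. It lies on chromosome 10 (96617006 to 96622809, plus strand). It had 114.1, 98.4 and 105.6 CPM in ASXL1-MT-KI libraries and 183.1, 145.3 and 162.1 CPM in wild type libraries. No value of 1 group reached the other. Its log2 fold change was -0.62 ± 0.088 (SE; adjusted p = 0.00205, edgeR), and number 3 differed from the mean of numbers 1 and 2 by -0.01 log2 in each genotype. The call held when any 1 library was left out and was lost with numbers 1 and 2 only (-0.63, adjusted p = 0.0621). Reads of the pseudogenes Btg1-ps1 and Btg1-ps2 were counted at 0 throughout.

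Btg2, a p53-inducible gene of the same family, lies on chromosome 1 (134075170 to 134079120, minus strand). It stood at 185.1, 177.5 and 175.1 CPM in ASXL1-MT-KI libraries and at 265.1, 229.0 and 168.2 CPM in wild type libraries. The ASXL1-MT-KI values were close together, while wild type number 3 lay below all of them. Its log2 fold change of -0.30 had an interval of -0.69 to 0.09 (adjusted p = 0.264, edgeR). Without wild type replicate 3 it was -0.46 and passed (adjusted p = 0.00105), as it did with numbers 1 and 2 only (-0.45, adjusted p = 0.00296). Within number 3 the log2 ratio was 0.06, against -0.52 and -0.37 within numbers 1 and 2, so the direction was not the same in all 3 pairs.

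Btg3, another BTG gene with antiproliferative activity, lies on chromosome 16 (78332637 to 78377192, minus strand) and was nearly silent. It had 96, 97 and 93 counts in ASXL1-MT-KI libraries and 139, 34 and 22 counts in wild type libraries, or 2.0, 2.15 and 2.24 CPM against 3.03, 0.741 and 0.542 CPM. The ASXL1-MT-KI libraries agreed, while wild type number 1 was higher than all 3 of them and wild type numbers 2 and 3 were lower. A log2 fold change of 0.55 had an interval of -0.96 to 2.06 (adjusted p = 0.608, edgeR). Wild type replicate 1 decided this: without it the log2 fold change was 1.72 (adjusted p = 0.00624). Btg3 shares 695 exon bases with Cxadr on the opposite strand, and the kit does not mark strand. Cxadr stood at 2.52, 1.92 and 3.23 CPM in ASXL1-MT-KI libraries and 2.27, 1.64 and 2.46 CPM in wild type libraries, without the high value in wild type number 1. Btg4 had 1 count in all 6 libraries together.

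Tob1, a BTG-domain protein that also binds SMAD proteins and restrains T cell activation, lies on chromosome 11 (94211454 to 94215495, plus strand). It had 24.3, 22.1 and 21.6 CPM in ASXL1-MT-KI libraries and 31.0, 28.1 and 22.9 CPM in wild type libraries. Wild type number 3 fell inside the ASXL1-MT-KI range. Its log2 fold change was -0.27 ± 0.11 (SE; adjusted p = 0.128, edgeR). It passed with the block (-0.26, adjusted p = 0.0104), with numbers 1 and 2 only (-0.35, adjusted p = 0.0189) and without wild type replicate 3 (-0.38, adjusted p = 0.0116).

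Tob2, its paralog, lies on chromosome 15 (81848272 to 81858796, minus strand). It had 129.5, 121.6 and 124.4 CPM in ASXL1-MT-KI libraries and 144.8, 145.8 and 140.7 CPM in wild type libraries. This was the smallest fall that passed and the one with the tightest replicates, with a coefficient of variation of 3.22% in ASXL1-MT-KI cells and 1.89% in wild type cells. The log2 fold change was -0.20 ± 0.047 (SE; adjusted p = 0.0193, edgeR). This call did not hold on leaving out replicate 2 or 3 of ASXL1-MT-KI or replicate 1 or 2 of wild type, with adjusted p up to 0.0990, while the log2 fold change stayed between -0.23 and -0.19. The antisense gene Gm49476 overlaps 289 exon bases of Tob2 and has no row of its own in the count table.

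Ier2, an immediate early gene with nuclear functions in the response to growth factors, lies on chromosome 8 (84661331 to 84662852, minus strand) in a single exon. It was the most abundant of the 10, at 443.5, 372.2 and 346.6 CPM in ASXL1-MT-KI libraries and 598.8, 593.0 and 479.4 CPM in wild type libraries. The groups did not overlap, and number 3 was lowest in each. Its log2 fold change was -0.52 ± 0.11 (SE; adjusted p = 0.0210, edgeR). The call was lost with no low count filter (adjusted p = 0.0560) and on leaving out 1 of 4 libraries, which were replicates 2 and 3 of ASXL1-MT-KI and 1 and 2 of wild type (adjusted p up to 0.0793).

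Ier5, which is known to recruit the phosphatase PP2A to heat shock factor 1, lies on chromosome 1 (155096361 to 155099636, minus strand), also in 1 exon. It had 103.7, 90.6 and 84.7 CPM in ASXL1-MT-KI libraries and 175.5, 154.9 and 114.9 CPM in wild type libraries. The lowest wild type value, number 3, was only a little above the highest ASXL1-MT-KI value, number 1. The log2 fold change was -0.67 ± 0.16 (SE; adjusted p = 0.0414, edgeR). The call was lost with no low count filter (adjusted p = 0.113) and without any library but wild type replicate 3 (adjusted p up to 0.139), whereas it held with the block (-0.66, adjusted p = 0.000135).

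**Figure D2:**
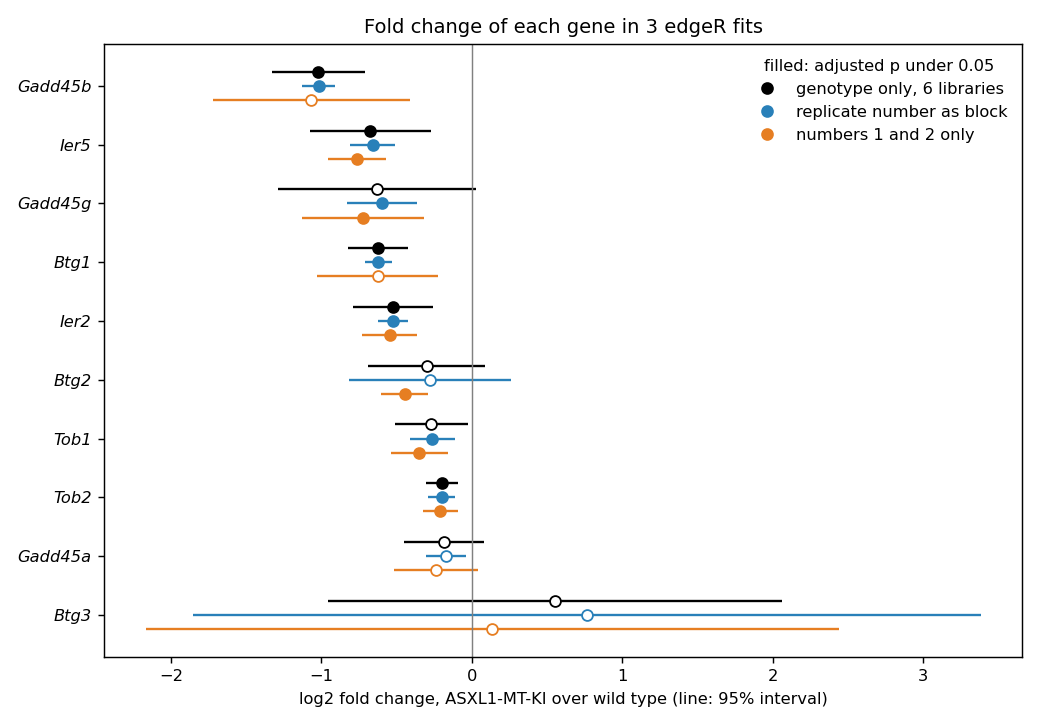
Log2 fold change of each gene, ASXL1-MT-KI over wild type, with its 95% interval in 3 edgeR fits: genotype only (black), replicate number as a block (blue) and numbers 1 and 2 only (orange); filled points have an adjusted p under 0.05. All points but those of Btg3 lie below 0, and Gadd45b and Btg1 are open in the fit of numbers 1 and 2.

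Of the 10 genes, 5 had every ASXL1-MT-KI library below every wild type library, against 17.2% of all tested genes, and they were the 5 that passed. In 8 of 10 the ASXL1-MT-KI library was below the wild type library of the same number in all 3 pairs, against 28% of all genes; Btg2 and Btg3 were the exceptions. With the replicate block, 7 of 10 fell, Gadd45g and Tob1 being added, while 13.8% of all genes passed as lower in that fit. With numbers 1 and 2 only, 6 of 10 fell, against 8.21% of all genes, and these were Gadd45g, Btg2, Tob1, Tob2, Ier2 and Ier5. Leaving out 1 library gave between 2 and 8 falls, with the share of all genes called lower in the same fit in brackets. Gadd45b and Btg1 were the 2 left without replicate 2 or 3 of ASXL1-MT-KI (4.26% and 6.43%) or replicate 1 or 2 of wild type (4.34% and 6.69%). Falls numbered 4 without replicate 1 of ASXL1-MT-KI (5.23%) and 8 without replicate 3 of wild type (7.61%). Without wild type replicate 1, Btg3 rose.

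**Figure D3:**
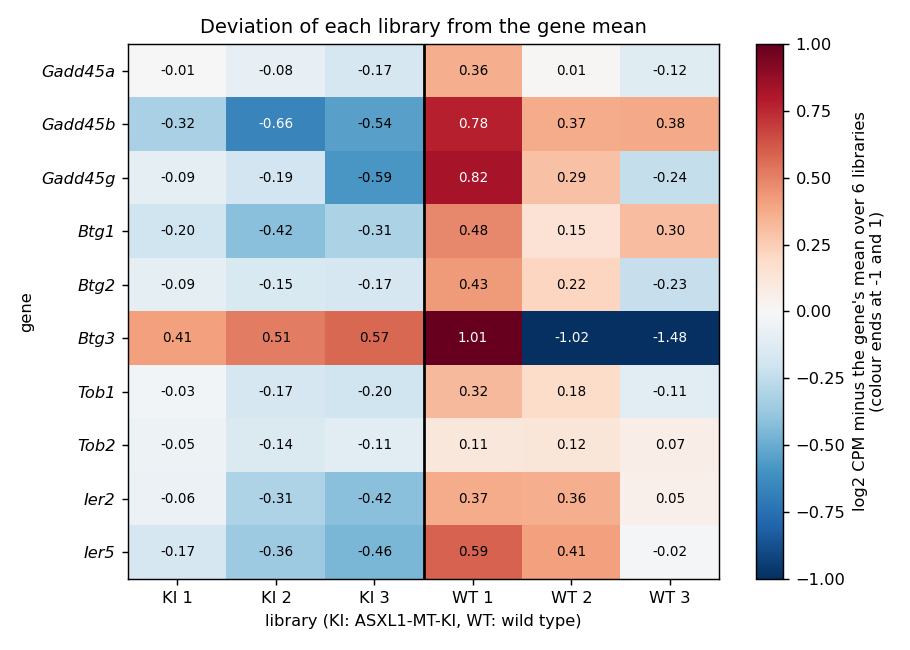
Deviation of each library from the gene's mean over 6 libraries, in log2 CPM, with the 3 ASXL1-MT-KI libraries left of the line and the 3 wild type libraries right of it. Wild type number 1 is the highest library in every row but that of Tob2, and wild type number 3 is the lowest wild type library in 8 rows.

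The genes varied more among wild type libraries than among ASXL1-MT-KI libraries. The median coefficient of variation over the 10 genes was 6.92% in ASXL1-MT-KI cells and 17.3% in wild type cells, against 6.14% and 7.48% over all tested genes. It was larger in wild type for 8 of the 10, and for 61.5% of all genes; Tob2 and Ier2 were the exceptions. Wild type number 3 was the lowest of its group for 8 of 10 genes (36.7% of all genes), and wild type number 1 the highest for 9 of 10 (29.2%). ASXL1-MT-KI number 3 was the lowest of its group for 6 of 10 genes (38% of all) and number 1 the highest for 9 of 10 (32.5%). Number 3 lay below the mean of numbers 1 and 2 by a median log2 difference of -0.08 in ASXL1-MT-KI cells and -0.34 in wild type cells. The difference in spread between genotypes was not tested.

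Per kilobase of exon, the scale on which levels of different genes can be set side by side, the order in ASXL1-MT-KI cells was Ier2, Btg2, Ier5, Gadd45a, Gadd45b, Btg1, Tob2, Tob1, Gadd45g and Btg3. Ier2 stood at 254.6 ± 33.0 CPM per kilobase in ASXL1-MT-KI cells and 366.0 ± 44.2 in wild type cells, and Btg2 followed at 65.3 ± 1.90 and 80.5 ± 17.8. Ier5 (28.4 ± 2.97), Gadd45a (27.6 ± 1.59) and Gadd45b (23.9 ± 2.86) followed in ASXL1-MT-KI cells, and of these Ier5 and Gadd45a differed by less than the SD of either. Btg1 (20.1 ± 1.49) and Tob2 (18.8 ± 0.605) differed by less than the SD of Btg1 but by more than that of Tob2. In wild type cells Gadd45b, at 48.4 ± 8.20, stood above Gadd45a, at 31.3 ± 5.55, while in ASXL1-MT-KI cells Gadd45a had the higher mean. Tob1 (9.90 ± 0.637 against 11.9 ± 1.80) and Gadd45g (7.0 ± 1.20 against 10.8 ± 3.92) were lower, and Btg3 was last at 0.531 ± 0.030 against 0.358 ± 0.344 in wild type cells (SD, n = 3 each).

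**Figure D4:**
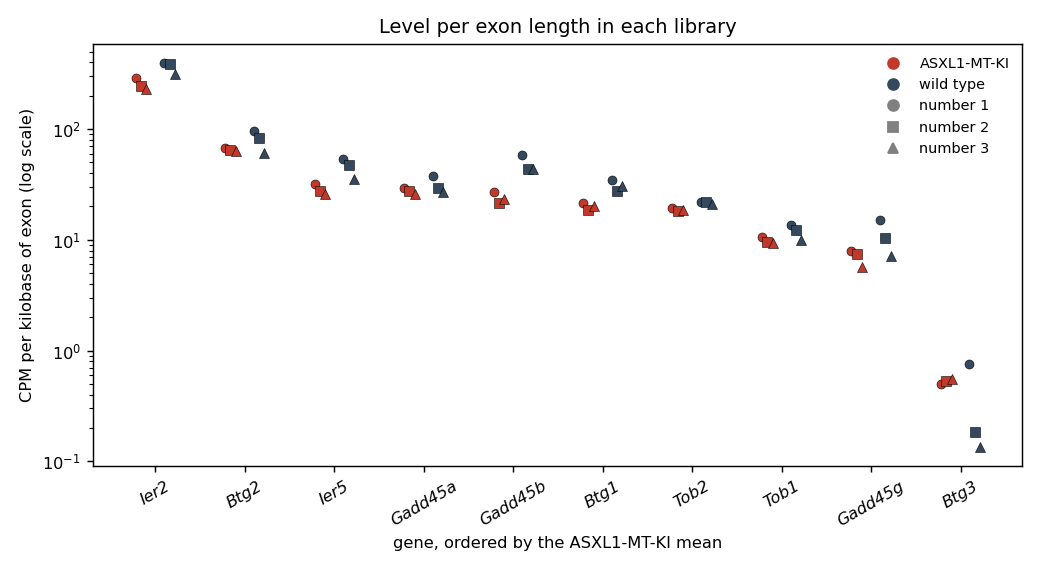
Level of each gene in CPM per kilobase of union exon length (log axis) in each ASXL1-MT-KI library (red, left) and wild type library (dark, right). Ier2 is highest in all 6 libraries and Btg3 lowest.

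The genes most like 3 of these in profile were found as those with the smallest root mean square difference of centred log2 CPM over the 6 libraries, among 11738 candidates. For Btg1 they were Irf1 (0.040), Eya1 (0.044) and Mef2c (0.047). For Gadd45b they were Vegfa (0.085), Smad7 (0.102) and Metrnl (0.107), and for Tob2 Trappc9 (0.019), Ptpn1 (0.020) and Gm11974 (0.020). Irf1, an interferon regulatory factor, had 87.8, 75.9 and 77.4 CPM in ASXL1-MT-KI libraries and 141.5, 116.6 and 121.8 CPM in wild type libraries. Vegfa, a growth factor for vessels, had 110.8, 89.1 and 107.2 CPM against 219.5, 182.4 and 176.3 CPM. This is a measure of likeness over 6 points that share library and genotype.

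Genes that work with these families were tested in the same fit. Beside the counts in these and later lists stand 7.69% of all genes called lower and 8.29% called higher. With the block 13.8% of all genes were called lower, and with numbers 1 and 2 only 8.21%. The lists share genes: Cdkn1a, Pcna, Cdk1, Ccnb1, Egr1, Atf3, Myc and Ier3 each stand in more than 1. Of 16 tested partners of GADD45 proteins, 4 fell in the edgeR test: Cdkn1a, which encodes the cell cycle inhibitor p21, and the kinase genes Map2k3, Mapk8 and Map2k7. Cdkn1a was at 87.7 ± 17.8 CPM in ASXL1-MT-KI cells and 183.6 ± 13.6 CPM in wild type cells (log2 fold change -1.07, adjusted p = 0.00437; 0.117 with numbers 1 and 2 only). Map2k3 was at 112.0 ± 2.48 and 153.9 ± 8.76 CPM (-0.46, adjusted p = 0.000688), a call kept in every leave-one-out fit. The Map2k7 call was lost without any 1 library and the Mapk8 call without any but ASXL1-MT-KI replicate 2. Map3k4, which encodes MTK1, at 72.6 ± 1.52 and 71.1 ± 3.29 CPM, and Pcna, at 460.9 ± 22.1 and 462.6 ± 30.2 CPM, did not pass (adjusted p = 0.746 and 0.966, edgeR). The list's median log2 fold change was -0.04, and falls numbered 1 with numbers 1 and 2 only, 3 without ASXL1-MT-KI replicate 2 and 2 without any other library. With the block 4 fell and 1 rose. With total counts 2 fell and the median was 0.01.

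Among 16 tested genes of the CCR4-NOT and PAN deadenylases and their poly(A)-binding and PRMT1 partners, 2 fell, with a median of -0.04. Over all genes 7.69% were called lower. With total counts 0 fell and 1 rose, with a median of 0.01. With the block 3 fell and 1 rose, against 13.8% of all genes called lower. Prmt1 was at 224.7 ± 3.76 CPM in ASXL1-MT-KI cells and 253.1 ± 11.2 CPM in wild type cells, and Pan3 at 168.2 ± 13.0 and 197.2 ± 12.4 CPM (log2 fold changes -0.17 and -0.23, adjusted p = 0.0393 and 0.0486, edgeR). The Prmt1 call was lost in 5 and the Pan3 call in 4 of 6 leave-one-out fits. The deadenylase genes that BTG and TOB proteins bind, Cnot7 and Cnot8, were at 73.8 ± 2.33 and 82.2 ± 1.40 CPM in ASXL1-MT-KI cells and at 82.0 ± 3.59 and 82.4 ± 2.61 CPM in wild type cells (adjusted p = 0.0844 and 0.969). Of 14 heat shock factor and chaperone genes linked to IER5, 0 passed in edgeR, DESeq2 or limma-voom, 3 were lower at an unadjusted p under 0.05 in edgeR, and the median was -0.10. Without wild type replicate 3, 4 of them fell, 3 fell with the block and 2 in the fit of numbers 1 and 2 alone. In 1 fit, which left out wild type replicate 2, 1 rose. Ier3 and Ier5l, taken in because they share the IER name, had log2 fold changes of opposite sign. Ier3, a stress-inducible regulator of apoptosis, fell to 70.8 ± 10.9 CPM in ASXL1-MT-KI cells, against 110.6 ± 10.2 CPM in wild type cells (log2 fold change -0.64, adjusted p = 0.00825, edgeR). Ier5l stood at 5.17 ± 0.289 CPM in ASXL1-MT-KI cells and 3.79 ± 0.576 CPM in wild type cells (0.45 log2, adjusted p = 0.0635, edgeR), and it was called higher with the block and with total counts.

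**Figure D5:**
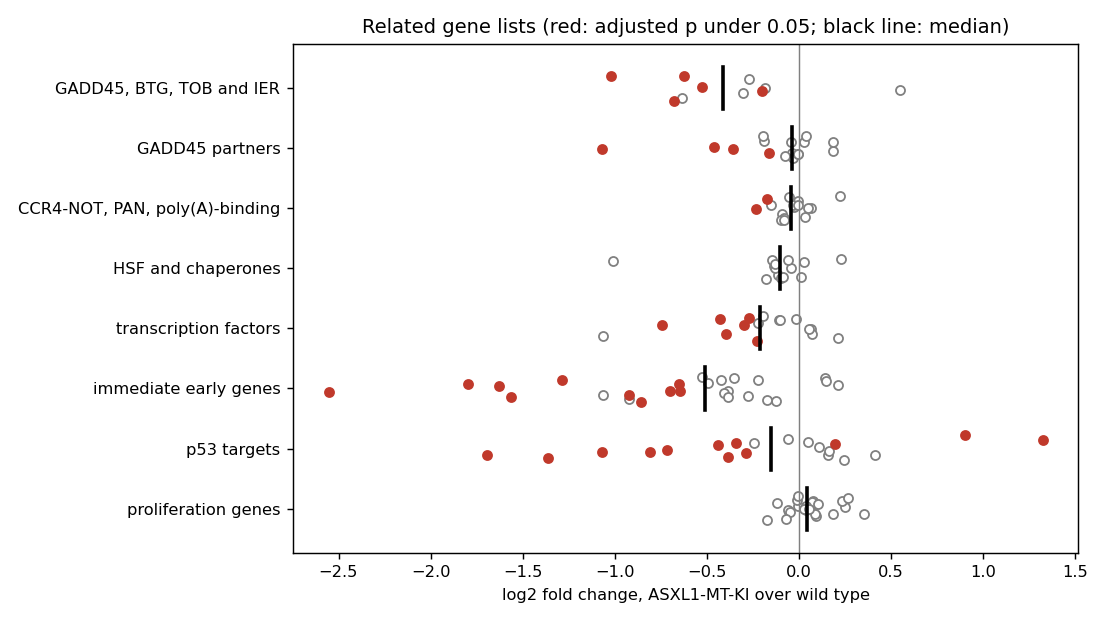
Log2 fold change, ASXL1-MT-KI over wild type, of the 10 genes and of 7 related gene lists; red points have an adjusted p under 0.05, open points do not, and black lines are medians. The median is -0.41 for the 10 genes, -0.51 for immediate early genes and 0.05 for proliferation genes.

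Of 16 transcription factor genes known to act on these families, 6 fell (median -0.21), against 7.69% of all genes. Nfkb2 was at 62.9 ± 1.76 CPM in ASXL1-MT-KI cells and 105.0 ± 11.6 CPM in wild type cells, Rela at 135.6 ± 13.8 and 178.5 ± 10.1 CPM and Foxo1 at 13.6 ± 0.940 and 18.2 ± 0.436 CPM (adjusted p = 0.000419, 0.00867 and 0.00639, edgeR). Trp53 was at 245.3 ± 11.5 and 247.9 ± 15.4 CPM (adjusted p = 0.898). Falls numbered 8 with the block, with numbers 1 and 2 only and in DESeq2, and 3 to 7 on leaving out 1 library, 3 being without ASXL1-MT-KI replicate 2. Among 20 p53 target genes, 9 fell and 3 rose, with a median of -0.15, and Cdkn1a, counted above, is among the falls. Over all genes 7.69% were called lower and 8.29% higher. With the block 9 fell and 5 rose, and with numbers 1 and 2 only 7 fell and 2 rose. On leaving out 1 library, 6 to 9 of the p53 targets fell and 2 to 4 rose. Bbc3, which encodes PUMA, was at 33.6 ± 2.38 CPM in ASXL1-MT-KI cells and 55.0 ± 6.37 CPM in wild type cells, whereas Phlda3 was at 5.44 ± 0.632 and 2.17 ± 0.298 CPM and Zmat3 at 11.9 ± 0.554 and 6.35 ± 0.644 CPM (adjusted p = 0.0011, 0.000763 and 0.000616, edgeR). Of 24 proliferation genes, 0 passed in edgeR, DESeq2 or limma-voom; at an unadjusted p under 0.05 in edgeR 1 was higher and 2 were lower, and the median was 0.05. With the block 5 of them rose and 2 fell. In the fit of numbers 1 and 2 alone 1 rose. Mki67, a marker of cycling cells, was at 1025 ± 51.7 and 960.9 ± 78.5 CPM (adjusted p = 0.378, edgeR).

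Immediate early genes that respond to stimulation and to tissue dissociation were set beside the 10 genes. Of 26 tested, which include Ier3 but none of the 10, 10 fell, against 7.69% of all genes. The list's median log2 fold change was -0.51, and 9 to 11 fell on leaving out 1 library. Falls numbered 16 with the block, where 1 gene rose and 13.8% of all genes were called lower. They numbered 15 with numbers 1 and 2 only, against 8.21% of all genes. Maff, a small bZIP factor, was at 31.5 ± 0.787 CPM in ASXL1-MT-KI cells and 57.0 ± 4.37 CPM in wild type cells, and Csrnp1 at 104.8 ± 15 and 198.7 ± 10.1 CPM (adjusted p = 9.2e-05 and 0.000552, edgeR). Nr4a2, an orphan nuclear receptor, had a log2 fold change of -1.56 (adjusted p = 5e-04). Fos and Egr1 did not pass, with log2 fold changes of 0.14 and -0.22 (adjusted p = 0.909 and 0.0605). The summed level of the list ranged from 5889 to 8361 CPM in ASXL1-MT-KI libraries and from 7919 to 11390 CPM in wild type libraries, and number 3 lay below numbers 1 and 2 by a median log2 difference of -0.21 in each genotype. The part of this list in the falls of the 10 genes was not tested.

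Markers of other cells were set beside these values. The summed level of 7 mast cell, basophil and eosinophil markers was 180.7 to 410.5 CPM in ASXL1-MT-KI libraries and 453.5 to 506.2 CPM in wild type libraries; 0 of 6 tested passed in edgeR, with 2 lower at an unadjusted p under 0.05, 2 fell in DESeq2 and 0 in limma-voom. Cma1 was near 0. With the block 2 of the list fell, with numbers 1 and 2 only 1, and without ASXL1-MT-KI replicate 3 4. That of 7 macrophage and monocyte markers was 725.8 to 820.4 against 675.7 to 714.0 CPM, mostly Ly6c2, the 1 of 7 that rose, a call lost in 3 of 6 leave-one-out fits. C1qa and C1qb averaged under 1 CPM in each genotype. With the block, and with numbers 1 and 2 only, 3 of the list rose and 1 fell. That of 7 stromal and endothelial markers was 116.9 to 124.2 against 130.7 to 153.5 CPM, mostly Pecam1 and Pdgfrb. Pecam1 was the 1 of 5 tested that fell (adjusted p = 0.0421, edgeR), and this call was lost with numbers 1 and 2 only (adjusted p = 0.0866) and in 5 of 6 leave-one-out fits. Lepr and Cdh5 were under 1 CPM in every library. Col1a1, a collagen gene of stromal cells, had 5, 3 and 7 counts in ASXL1-MT-KI libraries and 106, 6 and 6 counts in wild type libraries. Other markers of the list did not all set wild type number 1 apart. Among wild type libraries number 1 was highest for Col1a1 and Cxcl12, and number 3 for Pdgfrb and Pecam1. Kdr had 68, 67 and 46 counts in wild type libraries, nearly the same in numbers 1 and 2. Cdh5 had 16, 5 and 16 and Lepr 3, 3 and 3 counts there, too few to rank numbers 1 and 3. Pdgfrb had 27.7, 32.3 and 39.1 CPM and Pecam1 105.4, 96.2 and 112.2 CPM in wild type libraries. Cxcl12 had 0.959, 0.487 and 0.217 CPM in ASXL1-MT-KI libraries and 1.15, 0.458 and 0.493 CPM in wild type libraries, with number 1 the highest of each genotype. The sums of the neutrophil (175.4 to 220.3 against 158.4 to 249.3 CPM), B cell (20.4 to 23.3 against 19.8 to 23.4 CPM) and T and NK cell markers (145.9 to 193.9 against 165.7 to 182.5 CPM) overlapped between the genotypes. Of 4 B cell markers tested, 1 fell in edgeR (Cd79a) and in DESeq2, 3 in limma-voom and 3 with the block, where 1 rose; in the fit of numbers 1 and 2 alone 4 of 5 fell, and on leaving out wild type replicate 1 0 of 4 did. In turn 0 of 5 neutrophil and 0 of 3 T and NK cell markers passed in edgeR, DESeq2 or limma-voom, 0 and 1 of them differing at an unadjusted p under 0.05 in edgeR. With the block 2 neutrophil markers rose, and 1 T and NK cell marker rose and 1 fell; with numbers 1 and 2 only 1 neutrophil marker rose. Of 12 LK progenitor markers, Myb rose and Cd34 and Flt3 fell; the Myb call was lost in 4 of 6 leave-one-out fits (adjusted p up to 0.0782, edgeR), and with the block 3 rose and 3 fell. The part of these cells in the levels of the 10 genes was not tested.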

How the data were processed

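Bulk RNA sequencing counts of 6 libraries, 3 ASXL1-MT-KI and 3 wild type, were analysed. The authors deposited unnormalized whole-number counts for each gene symbol; per the submitters' processing notes HISAT2 2.0.4 and mm10 were used. The counter, its annotation, strand setting and treatment of shared reads were not given in the sources used here. Each column was matched to its library through genotype and number in its name. Genes were filtered with filterByExpr (minimum 10 counts), scaled by TMM and tested with edgeR 4.0.16 in R 4.3.3 (robust quasi-likelihood F test, genotype as the term), with adjustment across all 13548 genes tested at 0.05. Each standard error is the log2 fold change over the root of its F statistic. The steps were tested on simulated data. Between 40462168 and 47579480 counts per library set the precision; the biological coefficient of variation was 8.78%.

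The 10 genes, the gene lists and the tests were chosen with earlier results of these data known. Named genes were the 10, Asxl1, Btg4, Ier3 and Ier5l, up to 3 list members past the threshold by lowest p, and the 3 genes most alike in profile (mean CPM of at least 1) to the 3 of the 10 with the lowest p. Map3k4, Pcna, Cnot7, Cnot8, Map2k7, Trp53, Mki67, Fos, Egr1, Kit, Mpo, Cd4, Pdgfrb, Kdr, the overlapping genes and the markers near 0 were added after their values were seen. Cnot9 was read under its older symbol Rqcd1, and Ly6g was not analysed here. Across genes, which are not independent replicates, same-numbered libraries deviated together from their group means (r = 0.253, 0.162 and 0.391, all over 0.1), and this pairing was read from the counts, as no label gives it. ASXL1-MT-KI 1 and wild type 2 also correlated, at 0.163. No replicate pair agreed within sampling noise. Alternatives were the block, DESeq2 1.42.0, DESeq2 size factors, total counts, limma-voom (limma 3.58.1), no filter, a CPM 1 filter, an adjusted p under 0.10, each library left out, and numbers 1 and 2 only. Gene coordinates and exon lengths are from GENCODE M21 (GRCm38, which corresponds to mm10); promoters are from RefSeq on GRCm38.p6. Figures were drawn with matplotlib 3.10.9.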

Additional observations from a re-analysis of the deposited data

How the results depend on the processing

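Gadd45b, Btg1, Tob2, Ier2 and Ier5 were called lower with DESeq2 size factors, total counts, the stricter CPM filter, limma-voom, DESeq2 and the replicate block, and no gene of the 10 changed sign under any alternative run. The 5 falls became 3 with no low count filter, which tests 18181 genes and called 5.95% of them lower. They became between 2 and 8 on leaving out 1 library, where 4.26% to 7.61% of all genes were called lower. The count of rises was 0 in all fits but that without wild type replicate 1, where it was 1 (leave-one-out range 0 to 1). Over all genes 2165 were called, 4132 with the replicate block, and 1128 to 2257 on leaving out 1 library. The block changed no other call among the 10 than those of Gadd45g and Tob1. Over the 10 genes and all alternatives, 17 values lost the threshold, 10 gained it and 113 kept their side. Total counts moved the all-gene median (log2) to 0.05 and that of the 10 genes to -0.36. The causes were not tested. With 3 libraries a group, an interval as wide as that of Btg3, Gadd45g or Btg2 does not tell no change from a change of the size seen in other members.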
